A study of Mus musculus with 2 samples.

Results

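A set of 34 genes of glucose uptake, glycolysis, lactate export, oxygen sensing and the transcriptional answer to low oxygen was followed through single cells from the Achilles tendon area of mice. The members were taken from a fixed list of gene symbols, and each of the 34 was found among the 32285 genes of both count tables. By role they were 3 transporters, 15 glycolytic enzymes, 3 regulators of glycolytic flux, 4 genes of oxygen sensing and 9 hypoxia targets. There were 2 libraries, 1 of an injured hindlimb on day 7 after burn and tenotomy (cutting of the tendon) and 1 from the contralateral uninjured limb, whose label also names the burn and tenotomy procedure. Both carried the same alleles, Hoxa11 wt/CreERT2, R26 wt/LSL-rtTA and TetO-Vegfd, in which a tamoxifen-dependent Cre under Hoxa11 permits a tetracycline-controlled transactivator and so expression of the lymphatic growth factor Vegfd in cells of the Hoxa11 lineage of the lower limb. Mice of both sexes were 8 to 12 weeks old at injury with 5 per group, the labels do not state whether a library pooled animals, and tissue of mice without the transgene was not analysed here. Vegfd stood at 95.2 counts per 1000000 UMIs (CPM) over all injured cells and 23.5 CPM over all uninjured cells, so the libraries also differed in Vegfd transcripts. Transcripts of the transgene and of the native gene were not told apart, and their part in the results was not tested.

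Glycolysis splits glucose into pyruvate. Glucose enters through facilitative transporters (Slc2a1 and Slc2a3), hexokinases trap it, phosphofructokinases commit it, aldolase and triose phosphate isomerase cleave and interconvert the sugar phosphates, and Gapdh, Pgk1, Pgam1, Eno1 and Pkm complete the path to pyruvate. Lactate dehydrogenase (Ldha) then makes lactate, which the carrier Slc16a3 exports. When oxygen is plentiful, prolyl hydroxylases (Egln1 and Egln3) mark the alpha subunits of the hypoxia-inducible factors, encoded by Hif1a and Epas1, for destruction. In low oxygen the subunits persist and bind DNA with a shared beta partner at a core of letters ACGTG or GCGTG, and many glycolytic genes are known targets. This control acts mainly on the protein, so transcript levels of Hif1a and Epas1 do not measure the activity of the factors. In wounds the pathway is known in neutrophils, inflammatory macrophages and proliferating cells, which make lactate even where oxygen is available.

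After filtering, 9151 injured and 4700 uninjured cells remained, with medians of 17492 and 15772 UMIs (unique molecular identifiers, 1 for each captured transcript) per cell, and 19 barcodes were shared by the libraries. Cells were grouped without the members or related pathway genes, and groups were named from marker genes. At least 50 cells of each library fell into each of 7 classes, namely mesenchymal cells (2307 injured and 1275 uninjured), mononuclear phagocytes (2760 and 417), vascular endothelium (1218 and 1627), lymphatic endothelium (84 and 84), pericytes or smooth muscle (444 and 180), Schwann cells (131 and 249) and dendritic cells (301 and 98). Neutrophils (993), keratinocytes (308) and T or NK cells (226) reached that number in the injured library alone, and satellite cells or myoblasts (274) in the uninjured library alone. The marker lists that named the classes were also summed in them, which describes the classes and is no independent check. Mesenchymal cells pooled clusters best matched by the fibroblast, tenocyte or chondrocyte list. The 11 tenocyte markers summed to 2334 and 6308 CPM in injured and uninjured mesenchymal cells, and the 9 chondrocyte markers to 298 and 90.6 CPM. The 15 fibroblast markers summed to 66824 and 64150 CPM in injured and uninjured mesenchymal cells, the 16 macrophage markers to 31563 and 38372 CPM in phagocytes, the 10 lymphatic markers to 6569 and 15607 CPM in lymphatic endothelium and the 12 Schwann markers to 8451 and 32006 CPM in Schwann cells. Schwann cells also held fibroblast markers at 16053 and 23544 CPM. The 12 dendritic markers summed to 1562 and 922 CPM in dendritic cells, with 0 of them at 0 after injury and 1 without, and macrophage markers there to 2742 and 7075 CPM. With 1 library per condition there is no replicate check, no test of injury and no p-value. Intervals at 95% cover counting error only. A gene is called past 2-fold when the log2 ratio of class CPM, injured over uninjured and with 5 CPM added to each, passes 1 in size at a mean of 10 CPM or more.

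Summed over the 15 glycolytic enzymes, transcripts were at 2953 CPM in the injured library and 1875 CPM in the uninjured library, 1.57 times higher (interval 1.57 to 1.58). By class the injured level was 2.98 times the uninjured level in lymphatic endothelium (3736 against 1254 CPM), 1.89 times in mononuclear phagocytes (2995 against 1587 CPM) and 1.81 times in mesenchymal cells (2927 against 1619 CPM). It was 1.48 times in vascular endothelium (2637 against 1782 CPM). In pericytes or smooth muscle (2731 against 2564 CPM, 1.07 times), Schwann cells (1963 against 1700 CPM, 1.15 times) and dendritic cells (2695 against 2617 CPM, 1.03 times) the libraries lay close together, and the dendritic interval of 0.997 to 1.06 included 1. In the injured library the sum was 4479 CPM in keratinocytes, 3836 CPM in neutrophils and 2780 CPM in T or NK cells, and in the uninjured library it was 3000 CPM in satellite cells or myoblasts. The same 3 classes led cell by cell. In the median lymphatic cell the 15 enzymes made up 0.269% of UMIs after injury and 0.114% without, in the median phagocyte 0.223% and 0.140%, and in the median mesenchymal cell 0.225% and 0.138%. The spans from the 10th to the 90th percentile of single cells overlapped between libraries in each of the 7 classes.

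**Figure D1:**
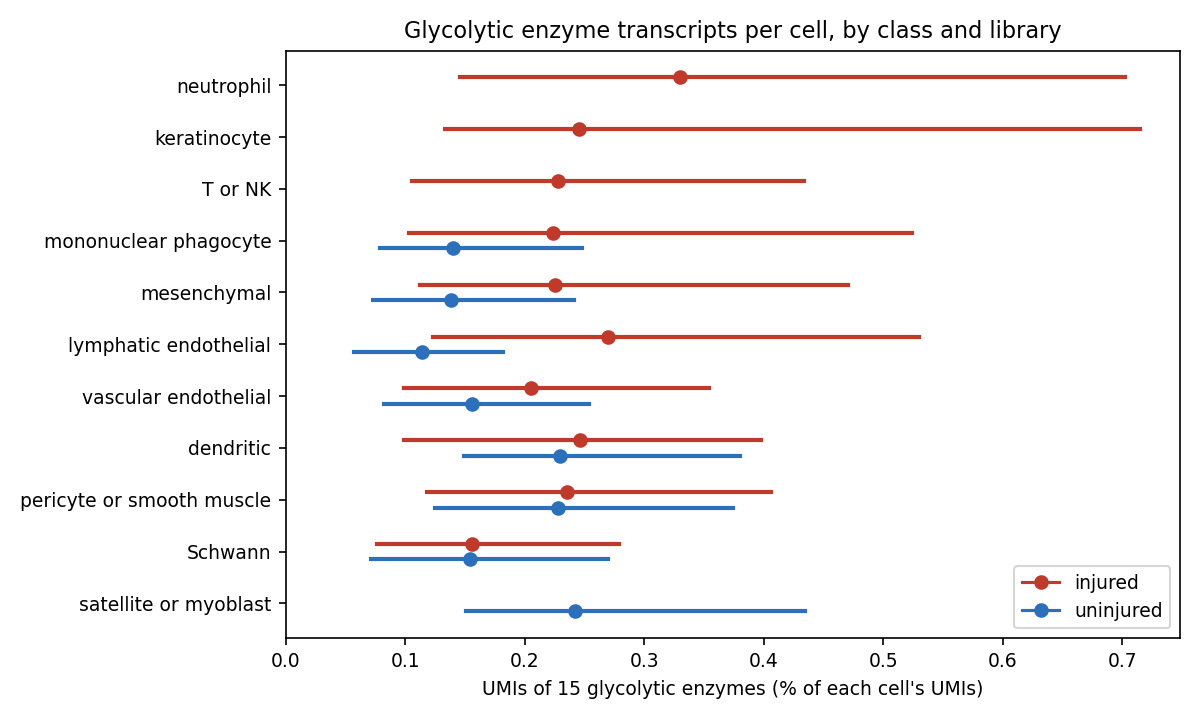
Share of each cell's UMIs, in percent, that came from the 15 glycolytic enzymes, by class (rows) and library (colour). Points are medians and lines run from the 10th to the 90th percentile of cells with at least 2000 UMIs; the injured median lies right of the uninjured one by the widest gap in lymphatic endothelium (0.269% against 0.114%), and the medians nearly coincide in Schwann cells (0.156% and 0.154%).

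Members past 2-fold were unevenly spread over classes. Over all cells, 4 of the 30 members that passed the level filter were higher and 1 was lower, where 4.52% of all genes tested were higher and 6.17% lower. In mononuclear phagocytes 7 of 27 were higher and 1 lower (background 2.96% and 3.77%), in mesenchymal cells 5 of 27 were higher and 0 lower (4.09% and 6.38%), and in lymphatic endothelium 9 of 25 were higher and 5 lower (10.2% and 9.75%). Vascular endothelium had 0 higher and 3 lower of 26 (4.23% and 4.32%). Pericytes or smooth muscle had 1 higher and 1 lower of 30 (6.76% and 5.91%), Schwann cells 0 higher and 3 lower of 26 (6.61% and 5.58%), and dendritic cells 3 higher and 1 lower of 29 (6.11% and 5.51%). Shares of the members near those of all genes, as in pericytes or smooth muscle, are no result about the members. In Schwann cells and vascular endothelium the lower counts rest on 3 members each. The median log2 ratio over all 34 members was 0.29 in phagocytes, 0.28 in lymphatic endothelium, 0.15 in mesenchymal cells, 0.02 in vascular endothelium and -0.11 in Schwann cells, beside medians over all genes tested between -0.04 and 0.06 in these classes.

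**Figure D2:**
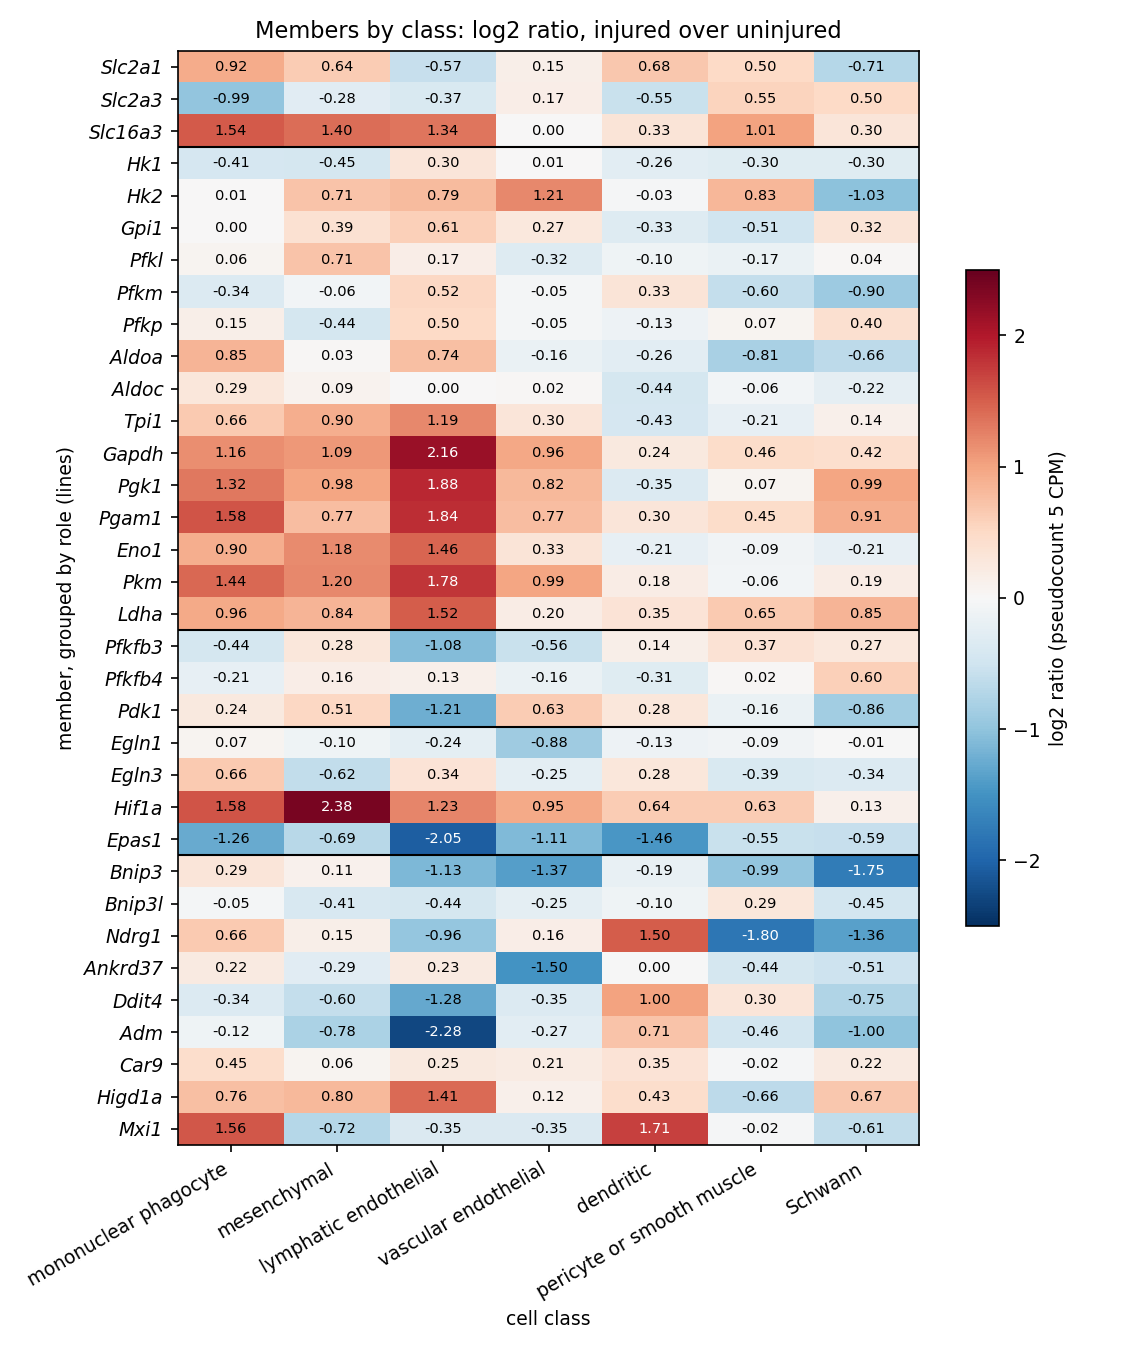
Log2 ratio of CPM, injured over uninjured with 5 CPM added, for the 34 members (rows, grouped by role with lines between transporters, enzymes, flux regulators, oxygen sensing and hypoxia targets) in the 7 classes compared (columns). Red is higher and blue lower after injury; Gapdh to Ldha are red in phagocytes, mesenchymal cells and lymphatic endothelium, Epas1 is blue in each column, and the targets Bnip3, Ddit4 and Adm are blue in lymphatic endothelium at -1.13, -1.28 and -2.28.

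The enzymes did not differ as 1 block. In lymphatic endothelium, phagocytes and mesenchymal cells the late steps, from triose phosphate to lactate, were higher after injury, and the early steps were within 2-fold. Gapdh, which oxidises glyceraldehyde phosphate, was at 926 CPM in injured and 412 CPM in uninjured phagocytes, at 998 and 466 CPM in mesenchymal cells and at 1436 and 318 CPM in lymphatic endothelium. Its ratios were 2.25 (2.16 to 2.34), 2.14 (2.10 to 2.18) and 4.51 (4.15 to 4.91) in that order. Pkm, pyruvate kinase, was at 407 and 147 CPM in phagocytes, 346 and 148 CPM in mesenchymal cells, 364 and 102 CPM in lymphatic endothelium and 329 and 163 CPM in vascular endothelium. In vascular endothelium both Gapdh (1.96 times) and Pkm (2.02 times) stayed within 2-fold on the log2 scale with 5 CPM added, at 0.96 and 0.99. Pgam1, the mutase before enolase, reached 218 CPM against 69.8 CPM in phagocytes (3.12 times) and 233 against 61.5 CPM in lymphatic endothelium (3.78 times), and 201 against 116 CPM in mesenchymal cells (1.74 times).

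Pgk1, the first step that regains ATP, was at 149 and 56.6 CPM in phagocytes, 158 and 77.5 CPM in mesenchymal cells and 266 and 68.7 CPM in lymphatic endothelium. Eno1, enolase, was at 189 and 99.0 CPM in phagocytes, 186 and 79.0 CPM in mesenchymal cells and 196 and 68.2 CPM in lymphatic endothelium. Both were higher in each of these 3 classes, Pgk1 past 2-fold in phagocytes and lymphatic endothelium and Eno1 past it in mesenchymal cells and lymphatic endothelium. Ldha was at 250 and 127 CPM in phagocytes, 357 and 197 CPM in mesenchymal cells and 401 and 137 CPM in lymphatic endothelium, and Tpi1, triose phosphate isomerase, at 182 and 76.8 CPM in lymphatic endothelium (log2 ratio 1.19). In Schwann cells Pgk1 (149 and 72.8 CPM), Pgam1 (155 and 80.3 CPM) and Ldha (220 and 120 CPM) were also higher, each within 2-fold on the log2 scale. In pericytes or smooth muscle, which counted 395 injured and 73 uninjured cells of a cluster led by Rgs5 and 49 and 107 of one led by Myh11, the late enzymes ran from a log2 ratio of -0.21 (Tpi1) to 0.65 (Ldha).

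Among the early steps, hexokinase 1 (Hk1) was at 33.4 CPM in injured and 46.2 CPM in uninjured phagocytes and at 19.0 and 27.8 CPM in mesenchymal cells, lower in both. Hk2, the inducible hexokinase, was at 102 and 60.8 CPM in mesenchymal cells and nearly level in phagocytes at 142 and 142 CPM. In vascular endothelium Hk2 was at 9.55 and 1.29 CPM, a ratio of 7.40 (5.34 to 10.5) at a level under the 10 CPM filter. Its cycling cluster was at 29.1 and 8.84 CPM, and the other 4 vascular clusters were at 0.905 to 2.48 CPM after injury. The hexokinases therefore did not share a direction in mesenchymal cells. In Schwann cells Hk2 was at 60.4 and 128 CPM, a log2 ratio of -1.03 that turned to between 0.25 and 0.57 under 5 alternatives, and the cause was not tested. Gpi1, glucose phosphate isomerase, was at 155 and 155 CPM in phagocytes. Of the phosphofructokinases, Pfkl was at 15.4 and 7.51 CPM in mesenchymal cells, Pfkp at 26.0 and 37.0 CPM there, and Pfkm did not reach a mean of 10 CPM in mesenchymal cells, phagocytes or either endothelium. Aldolase A (Aldoa) was at 272 and 148 CPM in phagocytes and 344 and 203 CPM in lymphatic endothelium, but at 228 and 224 CPM in mesenchymal cells and, lower after injury, at 251 and 444 CPM in pericytes or smooth muscle. In the Rgs5 cluster of that last class Aldoa was at 240 and 309 CPM. Uninjured cells of its Myh11 cluster were at 514 CPM, and the part of the cluster mix was not tested.

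Of the transporters, the lactate exporter Slc16a3 differed most, at 43.0 CPM in the injured and 6.32 CPM in the uninjured library over all cells (6.81 times, 6.25 to 7.42). Within classes it was at 46.1 and 12.6 CPM in phagocytes (3.67 times), 24.6 and 6.23 CPM in mesenchymal cells (3.95 times) and 17.0 and 5.91 CPM in pericytes or smooth muscle (2.88 times), and at 4.82 and 4.81 CPM in vascular endothelium. In the 1 mesenchymal cluster with 50 or more cells of each library its direction turned, to 1.89 and 6.01 CPM (log2 ratio -0.68). Neutrophils, of which the uninjured library held 4, had Slc16a3 at 932 CPM, and they gave 44.8% of its injured UMIs from 10.9% of injured cells. With every cell thinned to 2000 UMIs, Slc16a3 was seen in 75.5% of 965 injured neutrophils and in 0.591% of 1185 injured vascular endothelial cells (89.5% and 11.1% before thinning, at median depths of 4020 and 25614 UMIs). The neutrophil share was thus far above that of a class with little Slc16a3.

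The glucose transporter Slc2a1 was at 45.4 and 21.6 CPM in phagocytes and 20.7 and 11.5 CPM in mesenchymal cells, higher after injury, and at 112 and 186 CPM in Schwann cells and 32.6 and 50.9 CPM in lymphatic endothelium, lower after injury. Slc2a3, a transporter of high affinity, was at 391 CPM in neutrophils, which gave 51.8% of its injured UMIs, against 64.6 CPM in T or NK cells and 29.3 CPM in pericytes or smooth muscle. In phagocytes Slc2a3 was at 4.13 CPM after injury and 13.2 CPM without. Of the injured classes, neutrophils also had the highest levels of Slc2a1 (278 CPM, with keratinocytes next at 165 CPM), of Ankrd37, a small ankyrin protein (104 CPM, next 16.6 CPM), of the prolyl hydroxylase Egln3 (80.4 CPM, next lymphatic endothelium at 54.2 CPM) and of both bifunctional kinases that set fructose bisphosphate, Pfkfb3 (154 CPM) and Pfkfb4 (53.3 CPM). Their summed nuclear OXPHOS genes (52 subunits of the respiratory chain and ATP synthase) stood at 4619 CPM, against 9845 to 14336 CPM in the other injured classes with 50 or more cells. Neutrophil transcripts S100a8 and S100a9 in other injured classes stood at no more than 0.316% of their neutrophil level, except in keratinocytes at 2.12%. At such a share, free neutrophil RNA would bring 1.67 CPM of Slc16a3 to phagocytes and 1.33 CPM to mesenchymal cells, less than the levels seen there. For keratinocytes, where 42.0 CPM was seen, the same reckoning gives 19.7 CPM. It takes all their S100a8 and S100a9 as free RNA, and whether these were the keratinocytes' own was not tested.

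**Figure D3:**
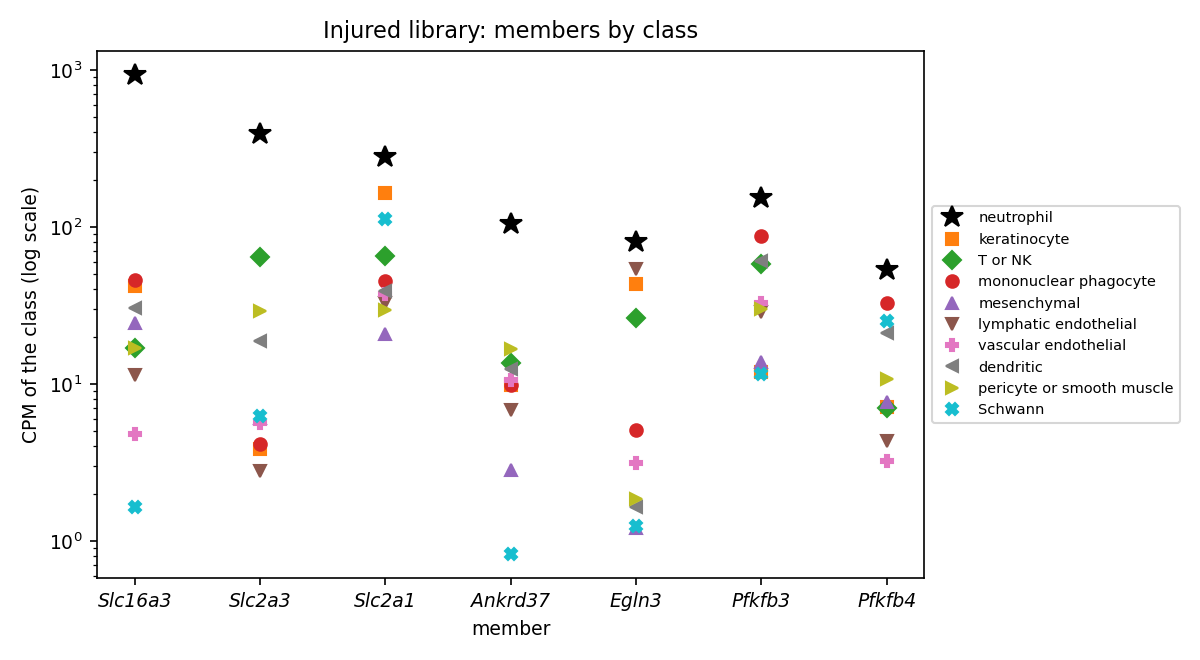
Levels of 7 members in the injured library (CPM of the class, log scale) in each class with 50 or more cells, 1 marker per class. Neutrophils (black stars) lie at the top for each of the 7, from 53.3 CPM for Pfkfb4 to 932 CPM for Slc16a3.

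Flux regulators were mostly within 2-fold. Pfkfb3 was at 87.5 and 121 CPM in phagocytes, 32.7 and 50.7 CPM in vascular endothelium and, past 2-fold, at 28.8 and 66.6 CPM in lymphatic endothelium, lower after injury in each class. Within vascular endothelium its direction differed by cluster. Pfkfb3 was higher after injury in capillary cells led by Timp4 and Cd36, at 85.0 and 44.5 CPM (1.91 times, 1.53 to 2.37). It was lower in clusters led by Selp (53.3 and 87.7 CPM) and Plvap (28.0 and 61.2 CPM). Pfkfb4 was at 32.7 and 38.5 CPM in phagocytes. Pdk1, the kinase that blocks entry of pyruvate into mitochondria, was at 32.7 and 19.4 CPM in vascular endothelium and 14.5 and 8.67 CPM in mesenchymal cells. None of the 3 pointed the same way in all 7 classes.

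Of the oxygen-sensing genes, Hif1a and Epas1 differed in opposite directions. Hif1a was at 369 CPM in the injured and 117 CPM in the uninjured library over all cells, and at 479 and 87.8 CPM in mesenchymal cells (5.45 times, 5.23 to 5.68). In phagocytes it was at 276 and 89.3 CPM (3.09 times, 2.84 to 3.37), in lymphatic endothelium at 175 and 71.7 CPM (2.44 times) and in vascular endothelium at 304 and 154 CPM (1.97 times). Smaller differences in the same direction were seen in dendritic cells (186 and 118 CPM) and pericytes or smooth muscle (297 and 190 CPM). In Schwann cells Hif1a was at 84.0 and 76.5 CPM, and the interval of the ratio, 0.895 to 1.35, included 1. Mesenchymal cells gave 59.4% of all injured Hif1a UMIs.

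Epas1, the alpha subunit known for its abundance in endothelium, went the other way. It was at 364 and 790 CPM in vascular endothelium (2.17 times lower after injury), 56.4 and 250.2 CPM in lymphatic endothelium (4.43 times lower), 7.92 and 25.9 CPM in phagocytes (3.27 times lower) and 3.99 and 19.7 CPM in dendritic cells (4.94 times lower). In mesenchymal cells it was at 16.4 and 29.4 CPM, in pericytes or smooth muscle at 373 and 547 CPM and in Schwann cells at 31.0 and 49.1 CPM, lower in each and within 2-fold on the log2 scale. Epas1 was thus lower after injury in all 7 classes compared, and Hif1a higher in all 7, Schwann cells within counting error. Of the prolyl hydroxylases, Egln1 was at 68.4 and 130.2 CPM in vascular endothelium and within 1.2 times in the other 6 classes, and Egln3 was at 54.2 and 41.7 CPM in lymphatic endothelium and under 10 CPM on average in the other 6.

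**Figure D4:**
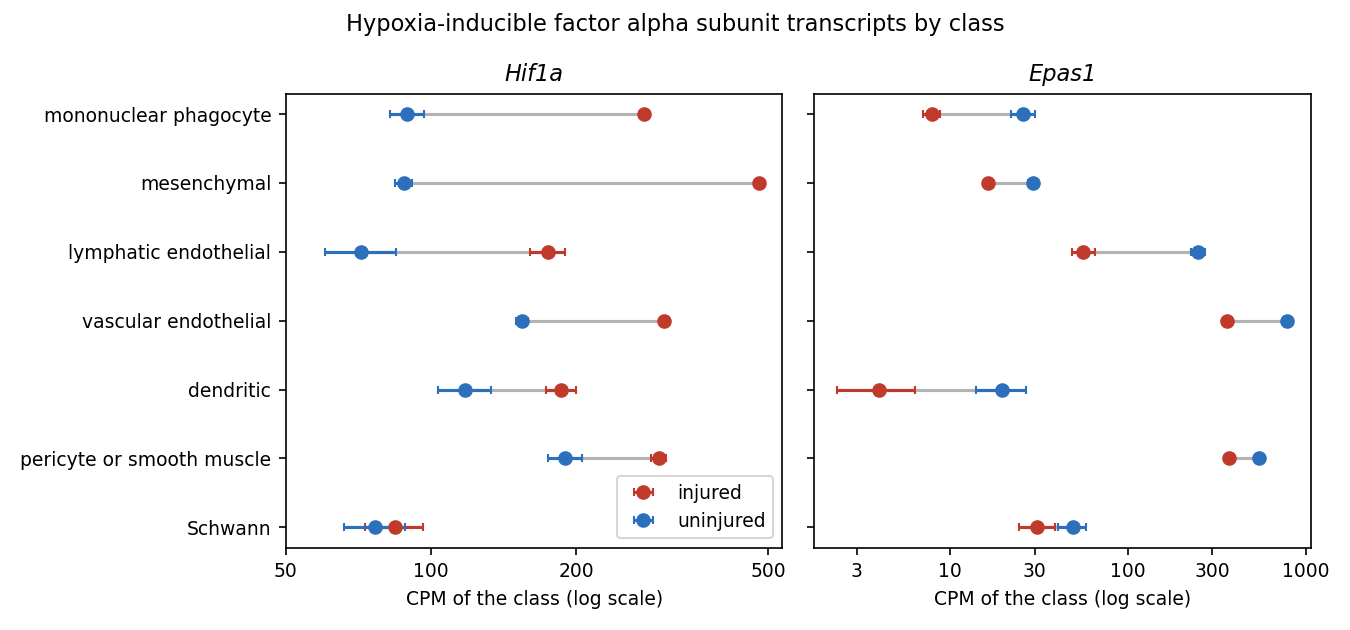
Hif1a (left) and Epas1 (right) in CPM of the class on log axes, for the injured and uninjured library in the 7 classes compared; bars are 95% Poisson intervals, which cover counting error only, and are hidden by some points. Injured points lie right of uninjured ones for Hif1a and left of them for Epas1 in each class, by a narrow gap for Hif1a in Schwann cells (84.0 and 76.5 CPM).

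The 9 hypoxia targets differed in the direction of Hif1a in some classes and not in others. Summed, they were at 630 and 385 CPM in phagocytes (1.63 times) and 556 and 326 CPM in dendritic cells (1.71 times), but at 459 and 478 CPM in mesenchymal cells, 772 and 889 CPM in vascular endothelium and 642 and 1088 CPM in lymphatic endothelium. Mxi1, a repressor that competes with Myc for its partner, was at 283 and 92.7 CPM in phagocytes (3.05 times, 2.81 to 3.32) and 137 and 38.4 CPM in dendritic cells (3.56 times). In mesenchymal cells Mxi1 was at 38.6 and 66.9 CPM, lower after injury. Higd1a, a mitochondrial inner membrane protein, was at 167 and 93.5 CPM in mesenchymal cells, 85.3 and 48.5 CPM in phagocytes and 118 and 41.2 CPM in lymphatic endothelium.

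Both members of the mitophagy receptor pair stood apart from the enzymes. Bnip3 was at 18.1 and 54.8 CPM in vascular endothelium (3.03 times lower), 5.89 and 18.8 CPM in lymphatic endothelium (3.19 times lower) and 6.62 and 34.1 CPM in Schwann cells (5.15 times lower), and at 28.8 and 26.2 CPM in mesenchymal cells. Bnip3l was within 1.4 times in each class compared, for example at 153 and 182 CPM in vascular endothelium. Ankrd37 was at 10.5 and 39.0 CPM in vascular endothelium (3.70 times lower) and Adm, the vasoactive peptide adrenomedullin, at 17.7 and 105 CPM in lymphatic endothelium (5.93 times lower) and 23.0 and 43.2 CPM in mesenchymal cells. Taken as whole classes, both endothelia then had lower Bnip3 and higher Hif1a in the injured library. The mix of vascular clusters also differed between libraries, as given below.

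Ddit4, which restrains mTOR and also answers to stress, was at 69.8 and 177 CPM in lymphatic endothelium and 56.1 and 25.5 CPM in dendritic cells. Ndrg1, a stress protein abundant in myelinating Schwann cells, was at 390 and 1008 CPM in Schwann cells and 40.5 and 153 CPM in pericytes or smooth muscle, lower after injury, and at 109 and 35.1 CPM in dendritic cells, higher after injury. In dendritic cells the macrophage markers given above also differed between libraries, and their part in Mxi1, Ddit4 and Ndrg1 was not tested. In the Schwann cluster with 50 or more cells of each library (101 injured and 129 uninjured) Ndrg1 was at 271 and 568 CPM, and of 27 members there, 2 were called higher and 8 lower (background 7.83% and 7.89%). Car9, a carbonic anhydrase, was at 4.11 CPM or less in injured phagocytes, mesenchymal cells, endothelia and neutrophils, and at 4.99 CPM in keratinocytes, and Aldoc passed the filter in dendritic cells alone, at 8.92 and 13.9 CPM.

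Most promoters of the members hold the letters that hypoxia-inducible factors recognise, also where their levels differed in opposite directions. In RefSeq windows of 300 bases, 250 before to 50 after an annotated start site (GRCm38.p6), 28 of the 30 members found in the table (93.3%) had ACGTG or GCGTG on either strand in at least 1 window, against 46.7% of 27025 genes. A gene may have several windows, and counted by window the shares were 82.2% of 45 for the members and 43.8% of 32851 for all genes. The members were listed for pathways in which many genes are known targets, so the higher share is no independent result. Both forms hold the letters CG, and the comparison with all genes was not matched for how often CG occurs. The letters ACGTG overlap the E-box CACGTG that other factors bind. The 5 windows are shown to set late enzymes and the exporter, which were higher in phagocytes and mesenchymal cells, beside a pair of targets that were lower in vascular endothelium. Capitals mark the matches on either strand, so CACGT and CACGC are the same letters read from the other strand.
Pgk1: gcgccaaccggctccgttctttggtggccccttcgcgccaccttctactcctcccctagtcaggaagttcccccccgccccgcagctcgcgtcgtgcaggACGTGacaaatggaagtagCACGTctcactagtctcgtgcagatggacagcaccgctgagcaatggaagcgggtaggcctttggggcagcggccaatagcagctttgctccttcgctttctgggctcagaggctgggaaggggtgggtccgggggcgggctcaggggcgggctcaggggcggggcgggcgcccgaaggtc
Ldha: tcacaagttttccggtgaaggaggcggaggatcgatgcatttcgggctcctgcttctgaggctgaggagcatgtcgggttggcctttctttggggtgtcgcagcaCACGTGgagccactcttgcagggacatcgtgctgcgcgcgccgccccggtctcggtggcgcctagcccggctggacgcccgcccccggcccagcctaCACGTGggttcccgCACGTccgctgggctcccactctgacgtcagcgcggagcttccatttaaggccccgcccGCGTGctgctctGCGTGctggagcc
Slc16a3: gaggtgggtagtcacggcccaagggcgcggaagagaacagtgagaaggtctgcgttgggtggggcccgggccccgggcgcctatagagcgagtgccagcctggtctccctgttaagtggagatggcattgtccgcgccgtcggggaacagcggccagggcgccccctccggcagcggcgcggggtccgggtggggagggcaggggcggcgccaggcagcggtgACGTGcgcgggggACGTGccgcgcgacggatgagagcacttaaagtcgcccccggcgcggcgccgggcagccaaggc
Bnip3: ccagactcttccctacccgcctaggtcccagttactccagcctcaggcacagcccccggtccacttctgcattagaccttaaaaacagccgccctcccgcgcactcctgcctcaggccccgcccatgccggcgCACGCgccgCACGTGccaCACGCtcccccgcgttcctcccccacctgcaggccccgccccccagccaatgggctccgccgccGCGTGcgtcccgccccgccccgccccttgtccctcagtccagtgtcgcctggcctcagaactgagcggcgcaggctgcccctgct
Ankrd37: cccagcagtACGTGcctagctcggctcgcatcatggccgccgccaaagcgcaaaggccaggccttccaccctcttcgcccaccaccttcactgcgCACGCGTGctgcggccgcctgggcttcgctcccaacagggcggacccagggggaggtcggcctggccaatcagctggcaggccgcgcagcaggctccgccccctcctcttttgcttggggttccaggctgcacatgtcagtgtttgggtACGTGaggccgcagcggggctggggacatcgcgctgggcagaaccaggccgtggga
The Pgk1 window lies on the plus strand of chrX:106186850-106187149 with 2 matches, that of Ldha on the plus strand of chr7:46845554-46845853 with 7, and that of Slc16a3 on the plus strand of chr11:120948817-120949116 with 2. A further Ldha window, not printed, had 2 matches. The Bnip3 window lies on the minus strand of chr7:138909457-138909756 with 5 matches and that of Ankrd37 on the minus strand of chr8:45999801-46000100 with 4. Each is printed 5′ to 3′ along the gene. The Bnip3 and Ankrd37 windows held matches as the Pgk1 and Ldha windows did. A match describes the letters and is not evidence of binding.

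Mesenchymal cells and phagocytes held clusters that 1 library nearly lacked, whereas lymphatic endothelium was a single cluster of 84 cells in each library and all 5 vascular clusters had 50 or more cells of each. Injured mesenchymal cells were mostly a cluster led by Tnc, C1qtnf3 and Cthrc1 (1189 injured and 5 uninjured cells, enzymes at 3314 CPM), a cluster led by Sfrp2 and Col14a1 (765 and 4 cells, 1745 CPM) and a cycling cluster led by Hist1h1b, Timp1 and Top2a (217 and 7 cells, 3999 CPM). Uninjured mesenchymal cells were mostly fibroblasts led by Gsn and Clec3b (107 and 691 cells) and tenocyte-like cells led by Mgp and Fmod (22 and 373 cells, 1889 CPM). In the Gsn and Clec3b cluster, the one with 50 or more cells of each library, the enzymes were at 1595 and 1504 CPM (1.06 times), and 0 of 24 members were past 2-fold in either direction (background 2.43% higher and 1.82% lower). Hif1a there was at 179 CPM after injury and 99.3 CPM without, and in the Tnc cluster it was at 534 CPM, in the Sfrp2 cluster at 392 CPM. Slc16a3 was at 31.0 CPM in the Tnc cluster and 7.09 CPM in the Sfrp2 cluster, and at 1.89 and 6.01 CPM in the shared cluster. The Sfrp2 cluster thus had Hif1a below that of the Tnc cluster and above that of the shared cluster. Its enzymes were near those of uninjured tenocyte-like cells. Adm, at 65.3 CPM against 5.19 CPM in the Tnc cluster, was highest in the Sfrp2 cluster among the injured mesenchymal clusters.

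Phagocytes were likewise split. Injured phagocytes were mostly a cluster led by Pf4, Lyz2, Apoe and Spp1 (1066 injured and 9 uninjured cells, enzymes at 3648 CPM) and monocyte-like cells with Plac8 and Ccr2 (775 and 36 cells, 3510 CPM). In the macrophages led by Cd74 and C1q genes (483 and 218 cells) the enzymes were at 2421 and 1627 CPM (1.49 times), with 4 of 27 members higher and 1 lower (background 2.51% and 2.75%). In the macrophages led by Ccl8, F13a1 and Mrc1 (436 and 154 cells), which resemble resident cells by those markers, they were at 1487 and 1273 CPM (1.17 times), with 1 member higher and 0 lower (3.11% and 3.61%). Mxi1 was higher in both shared clusters, at 265 and 95.6 CPM in the Cd74 cluster and 206 and 91.7 CPM in the Ccl8 cluster, and Hif1a at 254 and 78.0 CPM and 167 and 96.8 CPM. Slc16a3 was at 113 CPM in the monocyte-like cluster and 35.0 CPM in the Spp1 cluster.

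In vascular endothelium, of which 1054 of 1627 uninjured cells but 96 of 1218 injured cells were capillary cells led by Timp4, Cd36 and Aqp1, the enzymes were within 1.2 times between libraries in 4 of 5 shared clusters. They were at 1440.0 and 1604 CPM (0.898 times) in the capillary cluster, where 0 of 26 members were more than 2-fold higher and 1 lower (background 0.659% and 0.456%). They were at 2104 and 2095 CPM (1.00 times) in a cluster led by Selp, with 0 of 26 higher and 2 lower (2.71% and 3.3%), and at 2277 and 1975 CPM (1.15 times) in one led by Plvap, with 0 of 26 higher and 2 lower (1.89% and 2.78%). In cells led by Cldn5 and Sema3g they were at 1936 and 1739 CPM (1.11 times), with 1 of 25 higher and 1 lower (4.17% and 3.32%). The cycling cluster was at 3814 and 2331 CPM (1.64 times), with Gapdh at 1479.6 and 871 CPM and 2 of 27 members higher and 1 lower (4.04% and 4.52%). Of these 5 clusters, the cycling one alone had an enzyme ratio above 1.2. Epas1 was at 854 and 859 CPM in the capillary cluster, and at 338 and 525 CPM in the Selp cluster and 356 and 517 CPM in the Plvap cluster. It was at 219 and 439 CPM in the cycling cluster and 1337 and 1299 CPM in the Cldn5 and Sema3g cluster, so it was lower after injury in 3 of the 5 beyond counting error. Ankrd37 was lower after injury in each of the 5, for example at 10.4 and 49.97 CPM in the Selp cluster and 16.3 and 38.3 CPM in the capillary cluster. Hif1a was at 456 and 313 CPM in the Selp cluster and 299 and 265 CPM in the Plvap cluster. Bnip3 was at 20.3 and 41.5 CPM in the Selp cluster and 14.9 and 30.2 CPM in the Plvap cluster. In the capillary cluster Bnip3 was at 52.5 and 60.1 CPM, and the interval of its ratio, 0.658 to 1.14, included 1. Egln1 was at 149 and 150 CPM there. The part of the cluster mix in the class values was not tested. In pericytes or smooth muscle, the Rgs5 cluster taken alone had the enzymes at 2677 and 1816 CPM (1.47 times) with 3 of 30 members higher and 2 lower (background 6.38% and 6.59%), where the whole class was at 1.07 times.

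**Figure D5:**
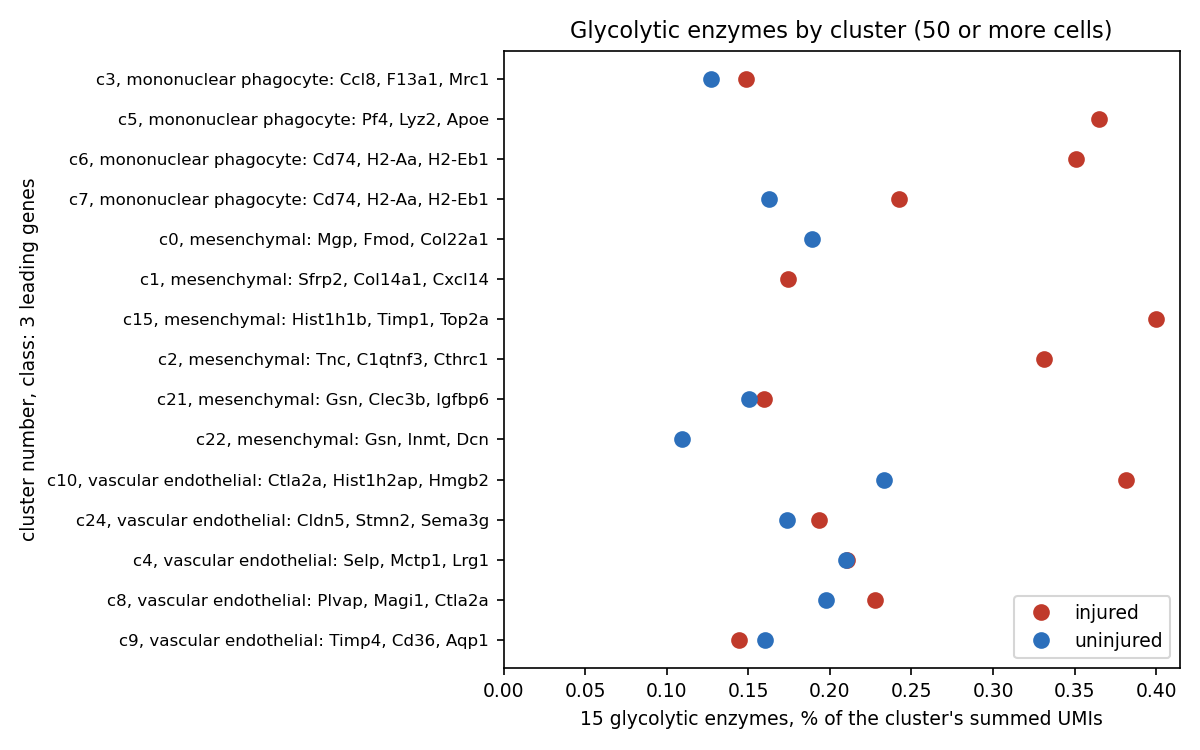
Summed level of the 15 glycolytic enzymes, as percent of the cluster's UMIs, in clusters of phagocytes, mesenchymal cells and vascular endothelium, labelled by cluster number, class and 3 leading genes; a library is drawn where it had 50 or more cells. Among mesenchymal clusters, those mostly of 1 library range from 0.109% (Gsn and Inmt, uninjured) to 0.331% (Tnc and Cthrc1, injured) and 0.400% (cycling, injured), and the shared cluster of Gsn and Clec3b lies at 0.160% and 0.150%.

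The library difference of 1077 CPM in the 15 enzymes was then split by arithmetic, for each class, into a part from its level and a part from its share of UMIs. Class levels gave 988 CPM, or 91.7% of the difference, and shares gave the rest. A class's level also moves with its mix of clusters, so a level part is not a difference within a cell type. Mesenchymal clusters were mostly of 1 library, and in the shared Gsn and Clec3b cluster the enzyme ratio was 1.06. Mesenchymal cells gave 502 CPM by level and 338 CPM by share, phagocytes 171 CPM by level and 219 CPM by share, and vascular endothelium 225 CPM by level and -382 CPM by share. Keratinocytes, absent from the uninjured library, gave 214 CPM by share, neutrophils 78.4 CPM by share and lymphatic endothelium 44.3 CPM by level. Of the injured UMIs of these enzymes, 45.4% came from mesenchymal cells, 17.2% from phagocytes, 15.8% from vascular endothelium and 7.25% from keratinocytes. Mesenchymal cells also had deep cells, which weigh in such sums, at a median of 45362 UMIs. For Slc16a3 the share of classes counted more, since class levels gave 32.6% of its difference, and for Hif1a they gave 89.5%. For Epas1, 55.0% of its library difference came from class levels.

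Other genes of both pathways were listed beside the members. Of 43 further glycolysis and pentose phosphate genes, 20 passed the filter in mesenchymal cells, 0 of them past 2-fold (background 4.09% higher and 6.38% lower), and 21 passed in phagocytes (2.96% and 3.77%), with 1 higher (Taldo1, transaldolase, at 328 and 132 CPM) and 1 lower (Slc16a7, another monocarboxylate carrier, at 38.7 and 92.5 CPM). Of 52 further hypoxia-linked genes, 35 passed in phagocytes with 5 higher and 1 lower (background 2.96% and 3.77%), and 39 in mesenchymal cells with 7 higher and 3 lower (4.09% and 6.38%). The mesenchymal lower count is near its background. In phagocytes Vegfa, the angiogenic ligand, was at 97.9 and 8.59 CPM (11.4 times), Hilpda, a lipid droplet protein, at 88.0 and 9.67 CPM, and Hmox1, haem oxygenase, at 1115 and 413 CPM. In mesenchymal cells Mif, a cytokine, was at 401 and 104 CPM and Lox, the collagen crosslinking oxidase, at 852 and 286 CPM. In lymphatic endothelium 9 of 33 were lower and 2 higher (9.75% and 10.2%), with Ak4 at 0.930 and 30.01 CPM and Vegfa at 2.79 and 23.9 CPM, while Hmox1 was at 229 and 28.0 CPM.

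The 52 nuclear OXPHOS genes were also higher in sum after injury in each class compared except pericytes or smooth muscle. They were at 11472 and 6938 CPM in phagocytes (1.65 times), 14336 and 8635 CPM in lymphatic endothelium (1.66 times) and 11824 and 9317 CPM in mesenchymal cells (1.27 times). The ratio was 1.19 in vascular endothelium and 1.12 in both dendritic and Schwann cells. In pericytes or smooth muscle they were at 14026 and 16426 CPM (0.854 times). Of the 52, 3 were past 2-fold higher in phagocytes (background 2.96%), 1 in mesenchymal cells (4.09%) and 11 in lymphatic endothelium (10.2%).

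Depth and cell cycling went with the result in part of the classes, and their part in it was not tested. Median UMIs per cell were 45362 and 19750 in mesenchymal cells, 31875 and 17271 in lymphatic endothelium and 25020 and 14414 in vascular endothelium, but 13658 and 14938 in phagocytes. Among cells of 10000 to 30000 UMIs the enzyme ratio was 1.20 in mesenchymal cells, 1.17 in vascular endothelium and 1.86 in phagocytes. A UMI of Mki67, Top2a or Cdk1 was seen in 48.1% and 7.45% of mesenchymal cells, 63.1% and 8.33% of lymphatic cells, 50.5% and 12.4% of vascular cells and 25.9% and 21.3% of phagocytes. Among cells without one the ratio was 1.503 in mesenchymal cells, 1.16 in vascular endothelium and 1.95 in phagocytes. Over all cells these ratios were 1.81, 1.48 and 1.89. Mesenchymal Hif1a was at 4.67 times in the depth window and 5.20 times without a cycling UMI, beside 5.45 times over all mesenchymal cells. Lymphatic endothelium had too few cells for either subset.

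Cells carrying Xist without a Y-linked UMI and cells with the reverse were both present in each library, so the sexes could be set apart. The enzyme ratio was 1.53 in Xist cells and 1.92 in Y-linked cells of the mesenchyme, 1.58 and 2.07 in phagocytes and 1.29 and 1.61 in vascular endothelium, above 1 in both for these 3 classes. Stress and immediate early genes, which tissue handling can move, were lower after injury, with medians over 25 genes of -0.44 in mesenchymal cells, -0.66 in phagocytes, -1.40 in lymphatic endothelium and -0.70 in vascular endothelium, and their part in the lower Ddit4, Bnip3 or Adm was not tested. In lymphatic endothelium the 4 haemoglobin genes summed to 2051 and 78.8 CPM and the fibroblast markers to 1605 and 391 CPM, with 0 of the 15 at 0 in either library. The haemoglobin genes were at 329 and 3263 CPM in vascular endothelium, 614 and 83.1 CPM in dendritic cells, 336 and 154 CPM in phagocytes and 60.5 and 319 CPM in mesenchymal cells. The part of these transcripts in the values of each class was not tested.

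Near-identical copies limit what a short 3′ read can say for some enzymes. Of the 60-base stretches in the last 500 bases of their transcripts, 66.2% for Eno1 and 61.1% for Gapdh also occurred in transcripts of other genes, the latter in 142 of them, and 22.1% for Gpi1, 20.6% for Bnip3 and 12.8% for Pkm. Counts of these genes are uncertain to that extent. Pgam1, Slc16a3, Hif1a, Epas1, Mxi1, Ankrd37 and Hk2 shared none.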

How the data were processed

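Single-cell RNA libraries of collagenase and dispase digests were compared, 1 per condition. The deposited UMI counts are raw and not normalized per the file headers, with Cell Ranger 5.0.1 and mm10 named in the submitters' processing notes. The tables held 10691 injured and 6850 uninjured barcodes with 253050820 and 101685524 UMIs. Barcodes with fewer than 500 genes or more than 10% mitochondrial UMIs were removed. Of injured and uninjured barcodes, 7.49% and 26.4% exceeded the mitochondrial limit. Another 215 and 60 with a Scrublet doublet score over 0.2, a threshold set after seeing the data, were also removed. Cells of both libraries were clustered with scanpy 1.11.5 and igraph 0.11.9 (2000 variable genes without members, related pathway, mitochondrial, ribosomal, haemoglobin or sex genes, 30 components, 15 neighbours, resolution 0.8), and 30 clusters were named from 20 marker lists. Haemoglobin genes were left out of naming after the clusters were seen, and unnamed clusters held 326 injured and 414 uninjured cells. UMIs were summed per class and library and scaled to CPM. Intervals came from scipy 1.17.1 (exact Poisson, conditional exact and Clopper-Pearson, 95%) and were tested on simulated data. They cover counting error only, and since no sample was replicated they say nothing of differences between animals.

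The members and lists were chosen with earlier results of these data known. Members were named when past 2-fold in a class or to complete a role, and other listed genes when among the 5 highest or 5 lowest log2 ratios of a class. Alternatives changed the pseudocount, level filter, mitochondrial limit, doublets, resolution, sex, depth and class assignment. Leaving out cycling clusters, clusters of 1 library, cells with a cycling UMI, and cells outside 10000 to 30000 UMIs was chosen after seeing the data. The sequences are from RefSeq, GRCm38.p6, in which 4 members (Slc2a3, Bnip3l, Ndrg1 and Epas1) had no promoter entry.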

Additional observations from a re-analysis of the deposited data

Results flagged for a closer look

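The ratio of Ddit4 differed in direction between classes, although both classes come from the same 2 libraries. Its log2 ratio was 1.00 in dendritic cells and -1.28 in lymphatic endothelium. Ndrg1 likewise had a log2 ratio of 1.504 in dendritic cells, -1.36 in Schwann cells and -1.80 in pericytes or smooth muscle. With 1 library per condition, each of these differences between classes was not tested.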

How the results depend on the processing

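Results with 1 library per condition have no replicate error, so these alternatives show only how values depend on choices made here. Of 666 alternative values for 44 pairs of a member past 2-fold and a class, 660 kept their direction and 583 stayed past 2-fold. The log2 ratio of Hk2 in Schwann cells turned to 0.50 with a mitochondrial limit of 20%, 0.57 with 5%, 0.25 with doublets kept, 0.27 at clustering resolution 1.5 and 0.31 with classes set cell by cell, and that of Slc16a3 in mesenchymal cells turned to -0.68 in clusters with 50 or more cells of each library. Counts of members more than 2-fold higher or lower moved as follows. With a pseudocount of 1 CPM, 2 were lower over all cells, 1 higher and 5 lower in Schwann cells, 2 lower in pericytes or smooth muscle and 1 higher in vascular endothelium. With 20 CPM, 0 were lower in dendritic cells and phagocytes, 3 lower in lymphatic and 1 lower in vascular endothelium, and 0 higher in pericytes. Without the level filter 1 was higher in vascular endothelium, as also with either mitochondrial limit, doublets kept, means over cells, resolution 1.5, without cycling clusters, without cells holding a cycling UMI and at 10000 to 30000 UMIs. With a limit of 20%, 3 were higher in Schwann cells and 2 lower in pericytes, and with 5%, 2 higher and 6 lower in Schwann cells and 2 lower in phagocytes. With doublets kept, 3 were higher in Schwann cells, 2 lower in dendritic cells and 0 lower in phagocytes. With means over cells, 7 were higher over all cells, 0 lower in dendritic cells and phagocytes and 0 higher in pericytes. At resolution 1.5, 3 were higher in Schwann cells and 2 lower in dendritic cells, and with classes set cell by cell, 3 higher in Schwann cells and 2 lower in pericytes. In Xist cells 2 were higher and 2 lower over all cells, 1 higher in Schwann cells, 1 higher and 1 lower in mesenchymal cells, 4 higher and 0 lower in phagocytes and 0 higher in pericytes. In Y-linked cells 8 were higher over all cells, 2 lower in pericytes and 4 higher in vascular endothelium. At 5000 or more UMIs 2 were lower over all cells and 2 lower in pericytes. In clusters with 50 or more cells of each library, 0 were higher and 2 lower over all cells, 2 higher and 8 lower in Schwann cells, 0 higher in mesenchymal cells, 2 higher in phagocytes, and 3 higher and 2 lower in pericytes. Without cells holding a cycling UMI, 1 was lower in Schwann cells, 2 higher in mesenchymal cells and 0 higher in pericytes. At 10000 to 30000 UMIs, 2 were lower over all cells, 0 lower in dendritic cells and phagocytes, 1 higher in mesenchymal cells and 2 higher in pericytes. Fewer cells enter the last settings by construction, and for the others the cause was not tested. With the uninjured library's weights, 86.0% of the enzyme difference came from class levels. The median over all members stayed between 0.08 and 0.58 in phagocytes, 0.05 and 0.30 in mesenchymal cells and 0.15 and 0.38 in lymphatic endothelium. Alternatives that left a class under 50 cells in a library were not run for that class. No paired analysis was possible because each condition has 1 library and there is no test.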
